A study of Homo sapiens with 9 samples.

Results

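The basal expression state of H1299 cells was described from 3 siControl samples out of the 9 samples of the series, chosen by their siControl label alone. All 34789 genes of the deposited table were used, and no measured value chose the samples. H1299 is an established line of non-small cell lung cancer. The labels give the cells as H1299 of genotype WT and cell type epithelial-like, grown in PRMI-1640 with 10% FBS. The 3 samples had received 50 nM control siRNA with Lipofectamine RNAiMAX, a lipid reagent, so they represent transfected and not untouched cells. The remaining samples had received siRNAs against FOXN3 at the same concentration and with the same reagent, and were not compared here. The labels do not say whether the replicates were separate cultures, so the SDs below describe how these 3 libraries vary and need not hold for new cultures.

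A cell line keeps part of the expression programme of the tissue it came from and loses part of it in culture. Lung epithelium is marked by surfactant genes and the transcription factor NKX2-1 in the alveoli, by secretoglobins, mucins and cilia genes in the airways, and by CDH1 and EPCAM at epithelial cell contacts in general. Carcinoma cells that have lost the epithelial contacts commonly carry vimentin, N-cadherin and ZEB1, and many tumours also transcribe germline genes that adult somatic tissue keeps silent.

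Polyadenylated RNA was measured at a depth of 18.7, 19.2 and 19.6 M (1e6) fragments in replicates 1, 2 and 3, recovered from the steps between low values. Levels are FPKM, fragments per kilobase of exon per 1e6 mapped fragments, a unit that is divided by length and so allows genes to be set side by side. Of the 34789 genes, 13242 had a mean of at least 1 FPKM, the level used below to call a gene expressed, which is 38.1%. Among the 17463 protein-coding genes 11008 passed, which is 63%. The median level was 0.331 FPKM over all genes and 2.93 FPKM over protein-coding genes, and 3756 genes were listed at 0 in all 3 samples. Replicates correlated with a Pearson r of 0.990 to 0.992 across the 13242 expressed genes on the log2(FPKM + 1) scale. The median coefficient of variation of an expressed gene was 6.07%, the usual spread of a gene over these 3 libraries. It does not cover errors in comparing different genes, such as the length used, which moves some ratios below.

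The distribution of transcripts was steep. The 10 most abundant genes held 13.1% ± 0.343 (SD, n = 3) of the summed FPKM, the first 100 held 32.2% ± 0.122 and the first 1000 held 60.2% ± 0.266. Mitochondrially encoded genes held 13.7% ± 0.525. They were led by MT-CO1, a subunit of cytochrome c oxidase, at 6948, 7252 and 7154 FPKM, and by MT-ATP6, an ATP synthase subunit, at 4364 FPKM ± 42.7 (SD, n = 3). The nuclear genes at the top served translation, glycolysis and the cytoskeleton. EEF1A1, a translation elongation factor, had 3017 FPKM ± 149, GAPDH, a glycolytic enzyme, had 2726 FPKM ± 48.1, and TMSB10, an actin-binding thymosin, had 1984 FPKM ± 141. Ribosomal protein genes held 8.30% ± 0.274 of the sum. Genes with less general roles also stood among the 20 most abundant nuclear protein-coding genes: HMGA1, a chromatin protein of embryonic and tumour cells, at 745 FPKM ± 30.9, SCD, a fatty acid desaturase, at 741 FPKM ± 33.5, and LGALS1, a galectin, at 722 FPKM ± 38.1. Among non-coding genes MALAT1 had 181, 152 and 165 FPKM and NORAD had 81.3, 87.2 and 87.5 FPKM. BCYRN1 and RN7SL2, short RNAs made by RNA polymerase III, did not agree between samples: BCYRN1 had 178, 167 and 449 FPKM and RN7SL2 had 46.6, 39.4 and 131 FPKM, replicate 3 being the highest for both.

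**Figure D1:**
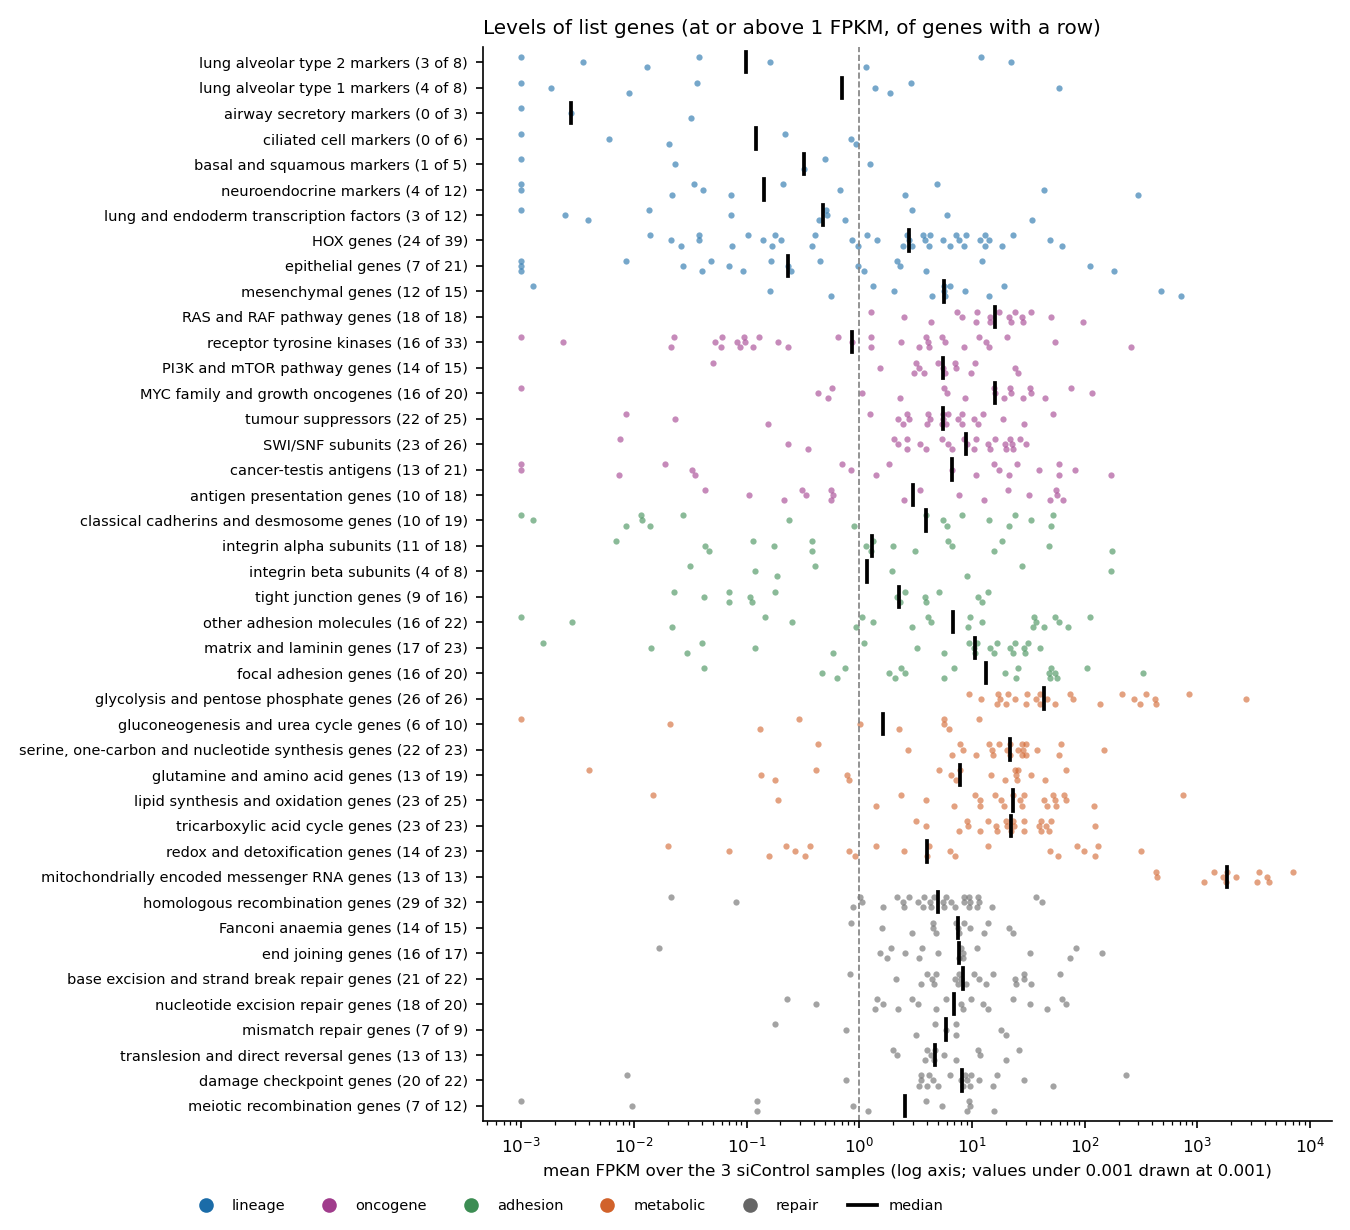
Mean FPKM over the 3 siControl samples, on a log axis, of each gene in the lists of lineage, oncogene, adhesion, metabolic and repair genes. Each point is a gene, black bars are list medians, the dashed line is 1 FPKM, and counts in parentheses are genes at or above it; glycolysis and tricarboxylic acid cycle genes lie wholly to the right of the line, and airway secretory and ciliated markers wholly to the left.

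How a level was counted bears on several genes below. Where the exons of the principal transcript of a protein-coding gene lay outside all other genes in GENCODE 29 (10949 genes), the median level was 2.95 FPKM. Where 50 to 75% of its bases also lay in exons of another gene on either strand (415 genes), the median was 1.22 FPKM. At 75 to 90% (220 genes) it was 0.273 FPKM, and at 90 to 100% (415 genes) it was 0.0587 FPKM, with 7.23% of those genes at or above 1 FPKM. These classes join both strands. With 50 to 75% shared on the same strand (239 genes), the median was 0.712 FPKM. With 50 to 75% shared on the opposite strand only (146 genes), it was 2.29 FPKM, and 64.4% of those genes were at or above 1 FPKM. A low value of a gene with such shared exons is therefore given with its shared percentage, and the part of shared exons in any level was not tested. The measure was added after values had been seen.

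Of the 129 lineage genes that have a row in the table, 58 (45.0%) were at or above 1 FPKM, beside 63% of all protein-coding genes, and their median was 0.680 FPKM. Counts of list genes below are of those with a row, and each is to be read beside that 63%. Genes without a row were left out, and what a missing row means was not tested. They include SFTPC and SFTPA1 of 10 listed alveolar type 2 markers. Of 8 listed airway secretory markers 5 had no row, SCGB1A1 and MUC5AC among them. Most genes that define lung epithelial cell types were near or at 0. Of 8 alveolar type 2 markers 3 were expressed, and they were ETV5, a transcription factor, at 22.1 FPKM ± 0.595 (SD, n = 3), ABCA3, a lipid transporter, at 11.9 FPKM ± 1.15, and LAMP3, a lysosomal protein, at 1.15 FPKM ± 0.0899. The surfactant gene SFTPB had 0.0260, 0.0634 and 0.0249 FPKM, a value of 2, 5 and 2 fragments, and the aspartic protease NAPSA had 0.254, 0.0582 and 0.171 FPKM. Of 8 alveolar type 1 markers 4 were expressed, led by CAV1, the caveolar coat protein, at 59.8, 59.5 and 59.5 FPKM, followed by AGER, a pattern receptor, at 2.89 FPKM ± 0.469. The water channel gene AQP5 was listed at 0 in replicates 1 and 2 and had 0.0271 FPKM in replicate 3. None of 3 airway secretory markers and none of 6 ciliated cell markers reached 1 FPKM. FOXJ1, the regulator of motile cilia, was listed at 0 in all 3 samples. Of 5 basal and squamous markers only KRT15, a keratin, passed, at 1.23 FPKM ± 0.152. TP63, the basal cell regulator, had 0.00718, 0.0280 and 0.0343 FPKM, and KRT5 was listed at 0.

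The regulators of lung identity were low. NKX2-1, the transcription factor of lung epithelium, had 0.406, 0.592 and 0.533 FPKM, and FOXA1, a forkhead factor of endoderm, had 0.753, 0.772 and 0.731 FPKM. Their ranges did not overlap, and both lay below 1 FPKM in every sample. Of 12 lung and endoderm transcription factors 3 were expressed: SOX9, a factor of distal lung progenitors, at 33.4, 36.1 and 32.1 FPKM, GATA6 at 6.05 FPKM ± 0.386 and GATA2 at 2.95 FPKM ± 0.353. SOX9 was well above GATA6, and GATA6 above GATA2, with no overlap of sample ranges.

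Neuroendocrine markers split. UCHL1, a ubiquitin hydrolase abundant in neurons, had 316, 283 and 301 FPKM and ranked 90 of all genes. ENO2, the neuronal enolase, had 43.7 FPKM ± 3.25, DLL3, a Notch ligand, 4.90 FPKM ± 0.361, and CHGB, a granule protein, 2.55 FPKM ± 0.345. The other 8 of 12 markers were below 1 FPKM. Among them NEUROD1, a neural transcription factor, had 0.0734 FPKM ± 0.0166, the granule gene CHGA had 0.0338 FPKM ± 0.0175, and INSM1 was listed at 0. NEUROD1, INSM1 and CHGA were therefore low while UCHL1 and ENO2 were high.

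Of 39 HOX genes, which record position along the body axis, 24 (61.5%) were at or above 1 FPKM, a share near the 63% of all protein-coding genes. The HOXB cluster had the largest summed level, 193, 182 and 185 FPKM, with 9 of 10 genes expressed. The HOXC cluster summed to 57.6 FPKM ± 3.63 (SD, n = 3), the HOXA cluster to 23.4 FPKM ± 1.98 and the HOXD cluster to 16.5 FPKM ± 1.53, and the sample ranges of the 4 sums did not overlap. HOXB2 led with 65.2, 60.9 and 64.4 FPKM, above HOXB7 with 55.2, 46.9 and 46.7 FPKM, HOXB4 with 23.2 FPKM ± 0.762 and HOXB9 with 18.4 FPKM ± 0.459. HOXB1, the gene at the anterior end of the cluster, was the HOXB gene below 1 FPKM, listed at 0 in replicates 1 and 3 and at 0.0421 FPKM, 2 fragments, in replicate 2. Of 5 HOX genes with at least 50% shared exons 4 were below 1 FPKM, namely HOXC5, HOXD1, HOXD3 and HOXD4. For HOXD1 the share was 58.1% on either strand and 2.99% on the same strand.

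Epithelial genes were split, with E-cadherin and several epithelial regulators near 0 and some junction genes expressed, while 12 of 15 mesenchymal genes were expressed. CDH1, which encodes E-cadherin, had 0.00866, 0.00843 and 0.00827 FPKM, the value of 1 fragment in each sample, which is below the 0.0254 FPKM that 3 fragments would give. EPCAM had 0.106, 0.145 and 0.243 FPKM, from 5, 7 and 12 fragments. The splicing factor ESRP1, which sets epithelial exon choice, had 0.249 FPKM ± 0.0636 (SD, n = 3), and GRHL2, an activator of epithelial genes, was listed at 0 in all 3 samples. Of 21 epithelial genes 7 were expressed, and the highest were the simple keratins KRT18 at 196, 175 and 179 FPKM and KRT8 at 116, 109 and 107 FPKM. The other keratins of the list, KRT7 and KRT19, were below 1 FPKM, at 0.975 and 0.232 FPKM. Of the tight junction genes of the list, the scaffold TJP1 had 12.3 FPKM ± 1.22 and OCLN, occludin, 3.88 FPKM ± 0.169. The claudins CLDN3 and CLDN4 had 2.32 FPKM ± 0.0785 and 2.16 FPKM ± 0.298, while the claudin CLDN7 had 0.0702 FPKM. Desmosomal genes, given with adhesion below, were likewise expressed in part. The labelled cell type is epithelial-like: of its fixed markers, CDH1 and EPCAM at cell contacts and the regulator GRHL2 were at or near 0. The keratins KRT8 and KRT18 and part of the junction genes were expressed.

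Of 15 mesenchymal genes 12 were expressed, with a median of 5.66 FPKM against 0.232 FPKM for the epithelial genes. VIM, the vimentin filament gene, had 503, 448 and 477 FPKM, which was 2.60 ± 0.0600 times the level of KRT18 and 4.30 ± 0.168 times that of KRT8. These ratios were 3.48 and 3.67 per length of the principal transcript. CDH2, which encodes N-cadherin, had 13.8, 14.2 and 14.5 FPKM. The repressor ZEB1, which silences CDH1, had 5.28, 5.96 and 6.04 FPKM, and TWIST1, named after its value was seen, had 8.61 FPKM ± 0.787. FN1, fibronectin, had 5.66 FPKM ± 0.458, and TGFBI, a matrix protein induced by TGF-β, had 19.4 FPKM ± 1.16. SNAI2, a repressor of the same programme as ZEB1, had 0.108, 0.252 and 0.123 FPKM and lay below ZEB1 in every sample.

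**Figure D2:**
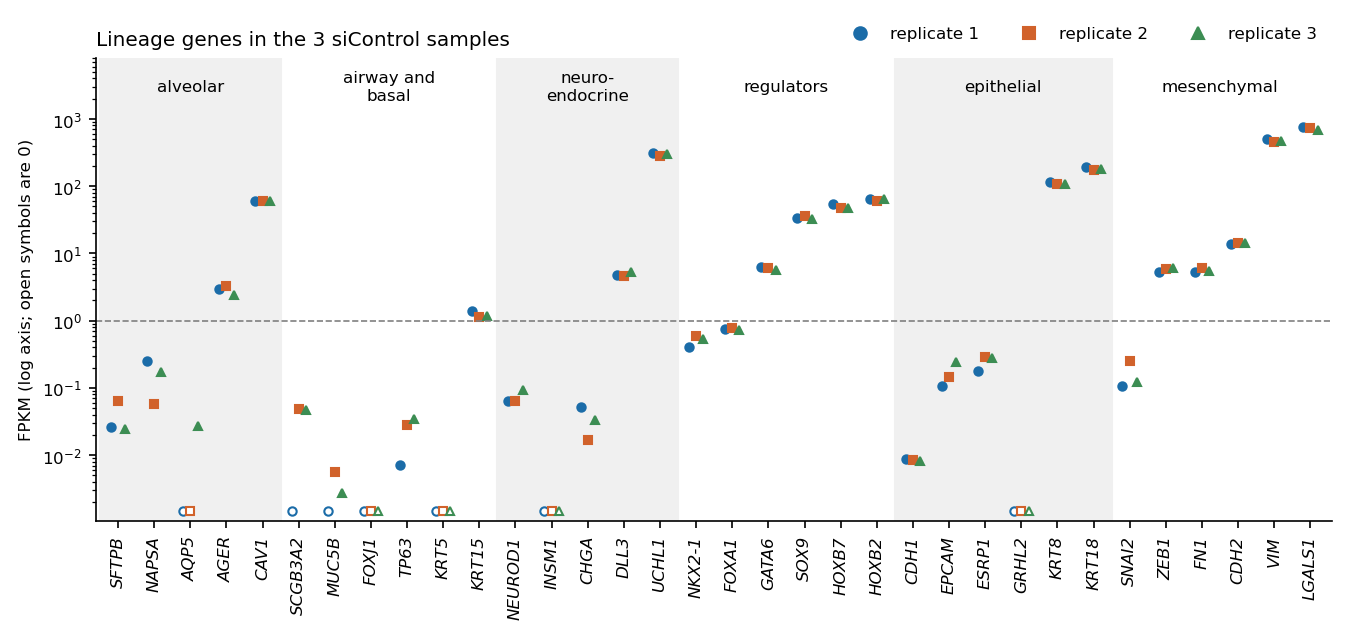
FPKM on a log axis of lineage genes in each of the 3 siControl samples; open symbols are values of 0 and the dashed line is 1 FPKM. KRT8, KRT18, VIM and LGALS1 lie above 100 FPKM in every sample, and CDH1 lies below 0.01 FPKM.

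None of 10 immune, 7 endothelial, 9 fibroblast and 3 erythroid markers reached a mean of 1 FPKM. This depends on the scale: with TPM, 3 immune and 1 fibroblast markers reached 1, and with mitochondrially encoded genes left out 1 endothelial marker did as well. Over the 29 genes the median level was 0.0610 FPKM. The summed level per sample ran from 1.51 to 2.31 FPKM for the immune list, from 0.505 to 0.717 FPKM for the endothelial list, from 1.08 to 1.35 FPKM for the fibroblast list and from 0 to 0.250 FPKM for the erythroid list. The highest were COL1A1, the fibrillar collagen gene, at 1.00, 0.886 and 0.765 FPKM, and LYZ, lysozyme, at 0.243, 0.679 and 0.985 FPKM. The pan-leukocyte gene PTPRC had 0.0547 FPKM ± 0.0274 (SD, n = 3) and the endothelial gene PECAM1 0.270 FPKM ± 0.0680. In bulk RNA, few cells with a transcript and little transcript per cell cannot be told apart.

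Oncogene and growth-control lists had 129 of 173 genes (74.6%) at or above 1 FPKM, beside 63% of all protein-coding genes, with a median of 5.76 FPKM. All 18 RAS and RAF pathway genes were expressed, from BRAF at 1.26 FPKM ± 0.0440 (SD, n = 3) to RRAS, a RAS-related GTPase, at 97.6 FPKM ± 3.15. Neither end held per length of the principal transcript. By that length RRAS did not exceed MAP2K2, next below it in FPKM, and MRAS, next above BRAF, did not exceed BRAF. NRAS, a GTPase at the head of the pathway, had 28.9, 27.5 and 27.8 FPKM and HRAS had 22.6, 19.7 and 21.0 FPKM, and their ranges did not overlap. The ratio of NRAS to HRAS was 1.33 ± 0.0566 (SD, n = 3). It depends on the length used: FPKM divides by all annotated exons of a gene, and per length of the principal transcript, an alternative added after values had been seen, the ratio was 0.826.

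Receptor tyrosine kinases, the growth factor receptors above this pathway, were expressed in 16 of 33 cases. AXL, the receptor of GAS6, stood apart with 247, 259 and 266 FPKM and ranked 105 of all genes. It exceeded MET, the HGF receptor, by 18.1 ± 1.39 times and EGFR by 44.9 ± 2.98 times. EPHA2, an ephrin receptor, had 53.6, 56.2 and 53.7 FPKM, EPHB4 had 20.6 FPKM ± 0.718, MET 13.4, 15.7 and 13.8 FPKM, FGFR1 11.7 FPKM ± 0.352 and EGFR 5.23, 6.24 and 5.79 FPKM. The kinases known from fusions in lung adenocarcinoma were at the other end. ALK was listed at 0 in replicates 1 and 3 and had 0.00707 FPKM, 1 fragment, in replicate 2, and RET had 0.0226 FPKM ± 0.00727.

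Of 20 MYC family and growth genes, which act in proliferation and survival, 16 were expressed. MYC had 32.1, 32.2 and 33.4 FPKM and held 98.7% ± 0.205 (SD, n = 3) of the level of its family, MYCN being listed at 0 in all 3 samples and MYCL at 0.432 FPKM ± 0.0781. CCND1, cyclin D1, had 71.5, 79.4 and 75.7 FPKM against 19.1 FPKM ± 0.583 for CCND3 and 1.05 FPKM ± 0.0646 for CCND2. MCL1, an inhibitor of apoptosis, had 107, 117 and 123 FPKM, whereas BCL2, of the same class, had 0.574 FPKM ± 0.0495. CDK4, the partner of D-type cyclins, had 44.6 FPKM ± 3.26 with 51.9% shared exons. CTNNB1, β-catenin, had 33.4 FPKM ± 0.395. TERT, the telomerase reverse transcriptase, had 0.383, 0.643 and 0.542 FPKM. Of the 15 PI3K and mTOR pathway genes 14 were expressed. AKT2 with 25.6 FPKM ± 0.892 and AKT1 with 24.1 FPKM ± 0.183 differed by a ratio of 1.06 ± 0.0291. The PI3K subunit gene PIK3R2 had 0.0710, 0.0806 and 0 FPKM and shared 97.9% of its principal transcript with other genes.

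Of 25 tumour suppressor genes 22 were expressed. CDKN2A, the locus of the inhibitors p16 and p14ARF, had 56.3, 50.6 and 51.3 FPKM, which was 2.81 ± 0.294 times the level of its neighbour CDKN2B, and 9.12 times per length of the principal transcript. RB1 had 11.4 FPKM ± 0.344 (SD, n = 3), STK11, the kinase LKB1, had 12.4 FPKM ± 0.196 and KEAP1, the adaptor that degrades NRF2, had 29.3 FPKM ± 1.37. The ATPases of the SWI/SNF chromatin remodeller were low: SMARCA4 had 2.53, 2.70 and 2.66 FPKM and SMARCA2 had 2.09, 2.32 and 2.26 FPKM. Their ratio was 1.18 ± 0.0237, and 1.02 per length of the principal transcript. Of 26 SWI/SNF subunits 23 were expressed with a median of 8.77 FPKM, and SMARCD2 led with 30.4 FPKM ± 0.403. SMARCE1, a core subunit named after its value was seen, had 0.233 FPKM ± 0.0128 with 59.7% shared exons.

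**Figure D3:**
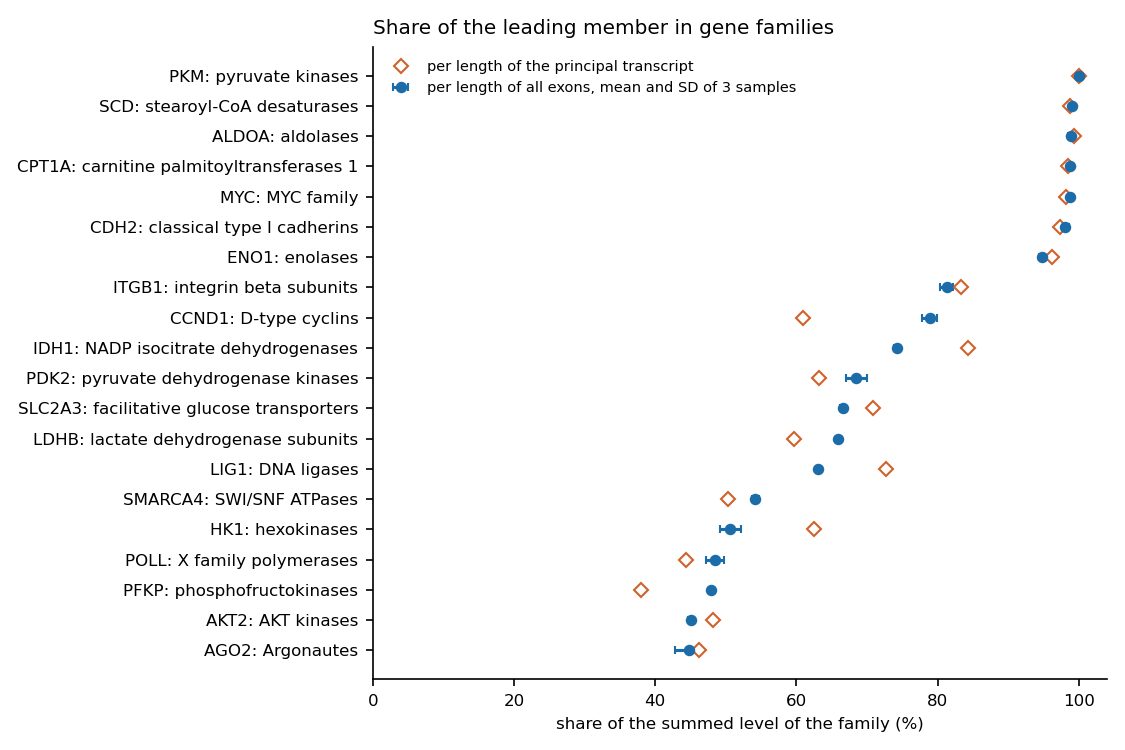
Share of the summed level of a gene family held by its leading member, drawn for part of the 23 families. Filled circles with bars are the mean and SD over the 3 siControl samples with FPKM, open diamonds the mean with levels per length of the principal transcript; PKM, SCD and ALDOA hold nearly all of their families, and PFKP falls from 47.9% to 37.9%.

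Of 36 listed cancer-testis antigens, genes of the germline that tumours can transcribe, 21 had a row and 13 of these were expressed. This share, 61.9%, is near the 63% of all protein-coding genes, and both shares leave out genes without a row. The 15 listed antigens without a row, SSX1 and SAGE1 among them, were not counted. MAGEA4 had 180, 158 and 176 FPKM and ranked 161 of all genes. PRAME, a repressor of retinoic acid signalling, had 83.2, 82.7 and 82.9 FPKM. MAGEA3 had 62.7, 55.8 and 60.2 FPKM and MAGEA6 had 63.9, 55.9 and 59.3 FPKM, with a ratio of 0.998 ± 0.0170 over the 3 samples (SD, n = 3). These genes are near-identical copies, so fragments of MAGEA3 and MAGEA6 cannot be fully separated. MAGEA12, MAGEA1 and MAGEA10, named after their values were seen, had 39.1 FPKM ± 2.46, 25.2 FPKM ± 1.63 and 17.4 FPKM ± 0.802. At the other end MAGEC1 and MAGEC2 were listed at 0 in all 3 samples, and MAGEA8 was listed at 0 in replicates 1 and 3 and had 0.0220 FPKM, 1 fragment, in replicate 2. Expression was thus uneven within the MAGE genes, which are X-linked and in most somatic tissue silenced by methylation of CG dinucleotides at their starts.

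The bases before the start of MAGEA genes are shown because MAGEA3, MAGEA4 and MAGEA12 were among the 5 highest listed cancer-testis antigen genes. The antigen gene GAGE2A, described below, was not on that list and had a mean of 216 FPKM. The bases shown are RefSeq windows on GRCh38.p14 that end at the base before the RefSeq start, less any bases of annotated exons. This leaves MAGEA3 at chrX:152698544-152698751 (plus strand), MAGEA4 at chrX:151912224-151912473 (plus strand) and MAGEA12 at chrX:152733507-152733756 (plus strand). Capitals mark a run of 13 bases that all 3 share and that contains no CG.
MAGEA3: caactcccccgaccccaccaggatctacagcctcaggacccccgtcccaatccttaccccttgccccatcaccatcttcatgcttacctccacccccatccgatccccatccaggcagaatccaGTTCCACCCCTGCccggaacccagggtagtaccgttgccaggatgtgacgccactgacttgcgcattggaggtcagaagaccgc
MAGEA4: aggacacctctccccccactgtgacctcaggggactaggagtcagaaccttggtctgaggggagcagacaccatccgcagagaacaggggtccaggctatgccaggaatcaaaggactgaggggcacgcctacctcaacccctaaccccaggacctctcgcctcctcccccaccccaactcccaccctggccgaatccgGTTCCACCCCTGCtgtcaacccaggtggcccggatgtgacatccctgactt
MAGEA12: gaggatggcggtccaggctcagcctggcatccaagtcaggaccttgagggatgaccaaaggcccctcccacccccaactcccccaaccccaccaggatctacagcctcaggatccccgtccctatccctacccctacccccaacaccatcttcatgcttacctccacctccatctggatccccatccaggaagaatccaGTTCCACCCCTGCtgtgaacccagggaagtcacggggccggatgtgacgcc
The MAGEA6 window equals that of MAGEA3 at 250 of 250 bases, and the levels of the genes are as close as given above. The run, searched on both strands, stands in 6 of 35116 windows (0.0171%), of genes MAGEA3, MAGEA4, MAGEA6, MAGEA12 and MPP7. Where a gene has several windows, that with the fewest exon bases was used, and among ties that with the longest run shared with MAGEA3. The run was taken from these chosen windows, so its presence in all of them follows in part from the choice. In the full windows of 250 bases, CG occurs 15 times for MAGEA3, 6 times for MAGEA4 and 5 times for MAGEA12, and the order of these counts is not the order of the levels. A shared run is a description of letters and not a binding site.

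Among the 10463 protein-coding genes with a mean of at least 100 fragments the median coefficient of variation was 5.31%, and 16 genes exceeded 30%. Of the 10 genes with the largest variation, every gene has a near-identical copy elsewhere in the genome, by textbook knowledge of these families; these genes were named after their values were seen. NXF2, an X-linked export factor of the germline, had 11.5, 0.378 and 4.06 FPKM. The antigen gene GAGE2A had 303, 286 and 58.5 FPKM, EIF3CL, a copy of the initiation factor gene EIF3C, had 19.0, 1.79 and 10.0 FPKM, and SMN1 had 19.9, 5.99 and 12.1 FPKM. The splicing factor gene U2AF1 had 0.202, 2.39 and 0.768 FPKM. Sums over copies also varied: the sum over 12 GAGE genes was 415, 383 and 124 FPKM, and the sum of SMN1 and SMN2 was 20.4, 6.47 and 12.4 FPKM. By contrast the coefficient of variation was 5.88% for MAGEA3 and 6.73% for MAGEA6. How multiply aligned fragments were counted is not given in the sources used here, and its part in these values was not tested.

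**Figure D4:**
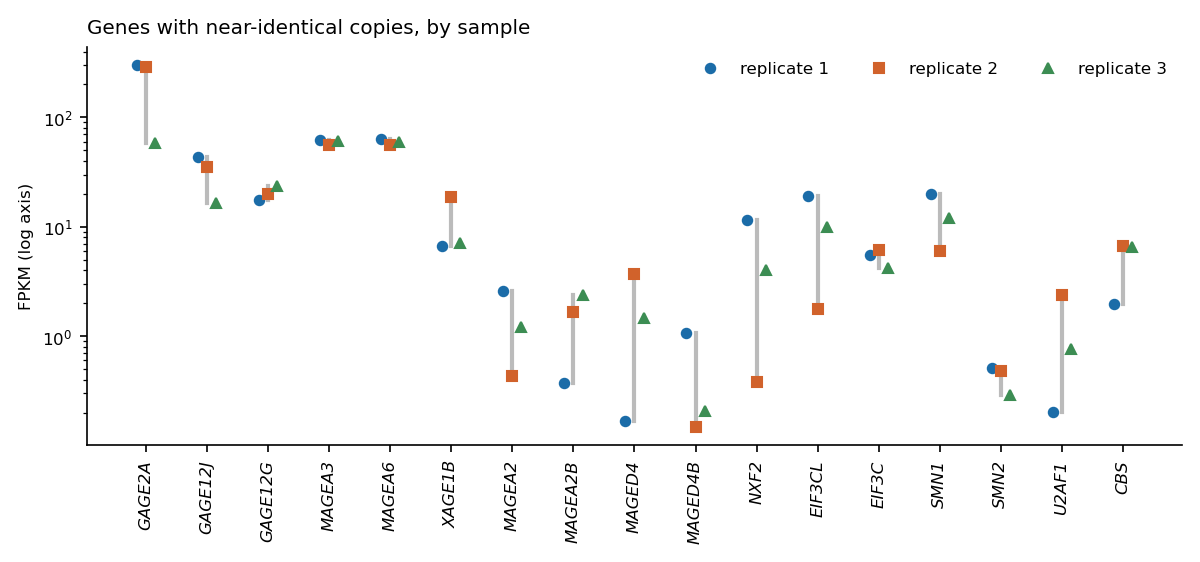
FPKM on a log axis in each of the 3 siControl samples for genes that have near-identical copies; grey lines join the lowest and highest sample. MAGEA3 and MAGEA6 lie close together in all samples, and NXF2, EIF3CL, MAGED4 and U2AF1 span a wide range.

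Antigen presentation genes were expressed in 10 of 18 cases. Of the class I genes, HLA-B had 63.7 FPKM ± 4.67 (SD, n = 3), HLA-C 56.1 FPKM ± 5.67 and HLA-E 49.5 FPKM ± 0.169. HLA-F was below 1 FPKM, at 0.556 FPKM, with 47.5% shared exons on either strand and 0% on the same strand. B2M, their common light chain, had 58.1, 53.5 and 57.7 FPKM. CD274, which encodes the checkpoint ligand PD-L1, had 0.573, 0.469 and 0.721 FPKM and lay below 1 FPKM in every sample. HLA genes are polymorphic, and the counting of reads that differ from the reference is not given in the sources used here.

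Adhesion lists had 82 of 125 genes (65.6%) at or above 1 FPKM, near the 63% of all protein-coding genes, with a median of 3.88 FPKM. The matrix receptors were led by an integrin pair, ITGA3 at 165, 181 and 176 FPKM and ITGB1 at 171, 175 and 172 FPKM, whose products join as a laminin receptor. The ratio of ITGA3 to ITGB1 was 1.01 ± 0.0389 (SD, n = 3), and their ranges overlapped. It depends on the length used and was 1.27 per length of the principal transcript. ITGA6, another laminin-binding subunit, followed with 45.0, 51.7 and 49.4 FPKM. ITGA5, the fibronectin receptor subunit, had 18.3 FPKM ± 0.933, and ITGAV 15.7 FPKM ± 0.173. Of 8 beta subunits 4 were expressed, and ITGB1 held 81.3% ± 0.911 of their sum, with ITGB5 at 27.9 FPKM ± 1.57 next. The leukocyte subunit ITGB2 had 0.118 FPKM ± 0.0292.

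Cadherin genes were carried by CDH2, which held 98.0% ± 0.613 (SD, n = 3) of the summed level of 5 classical type I cadherins. Catenin genes were present, CTNNA1 at 52.2 FPKM ± 1.84 and CTNND1 at 24.2 FPKM ± 0.979. DSG2, a desmosomal cadherin named after its value was seen, had 21.2 FPKM ± 0.588 and DSP, desmoplakin, 5.55 FPKM ± 0.370. The desmosomal cadherin DSC2 was below 1 FPKM, at 0.907 FPKM, and DSC3 was listed at 0. CDH2 was at 0.668 ± 0.00706 of the level of DSG2. Among 16 tight junction genes 9 were expressed, with CLDN12 at 13.8 FPKM ± 0.258, TJP1 at 11.3, 13.7 and 11.9 FPKM and CLDN1 at 11.6, 11.7 and 10.7 FPKM, the ranges of neighbours in this order overlapping. Of other adhesion molecules, NECTIN2, an immunoglobulin-like receptor, had 111 FPKM ± 1.42, the tetraspanin CD151 had 70.9 FPKM ± 1.25, and CD44, the hyaluronan receptor, had 57.5, 60.7 and 60.8 FPKM, while L1CAM had 0.118, 0.186 and 0.134 FPKM.

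Matrix genes were expressed in 17 of 23 cases, with laminin chains LAMC1 at 29.4 FPKM ± 3.01 (SD, n = 3), LAMB3 at 28.7 FPKM ± 1.25 and LAMB1 at 24.2 FPKM ± 1.34, and the collagen COL6A2 at 40.0 FPKM ± 0.629. The proteoglycan AGRN had 31.7 FPKM ± 2.29. Of 20 focal adhesion genes 16 were expressed. ACTN4, an actin cross-linker, had 312, 350 and 322 FPKM, FLNA, filamin A, 94.4, 117 and 103 FPKM, PXN, paxillin, 56.6 FPKM ± 1.59, TLN1, talin, 54.3 FPKM ± 5.27, VCL, vinculin, 50.7 FPKM ± 3.33 and PTK2, focal adhesion kinase, 25.7 FPKM ± 0.517.

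Of the 162 metabolic genes, 140 (86.4%) were at or above 1 FPKM, with a median of 21.9 FPKM. All 26 glycolysis and pentose phosphate genes were expressed, with a median of 43.2 FPKM. After GAPDH the highest were ENO1 at 852, 837 and 828 FPKM, TPI1 at 433 FPKM ± 25.1 (SD, n = 3) and LDHB at 439, 404 and 424 FPKM. LDHB, the lactate dehydrogenase subunit typical of heart, was 1.97 ± 0.0328 times LDHA at 219, 207 and 218 FPKM, and it led with either length although 64.6% of its exons are shared. PKM, pyruvate kinase, had 275 FPKM ± 7.25 and its paralog PKLR was listed at 0 in replicate 1 and had 0.0494 and 0.0323 FPKM in the others. The glucose transporter SLC2A3 had 74.3 FPKM ± 5.53, which was 2.01 ± 0.0355 times SLC2A1. HK1 and HK2, the enzymes that phosphorylate glucose, had 17.8 FPKM ± 0.715 and 16.6 FPKM ± 1.65, and their ranges overlapped. The ratio of HK1 to HK2 was 1.08 ± 0.0703, and 1.79 per length of the principal transcript. PFKP led the phosphofructokinases with 47.9% ± 0.331, whereas per length of the principal transcript PFKL led with 41.6%.

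Of 10 gluconeogenesis and urea cycle genes 6 (60.0%) were expressed, near the 63% of all protein-coding genes, with a median of 1.63 FPKM. Of gluconeogenesis, PC, pyruvate carboxylase, had 5.59 FPKM ± 0.176 (SD, n = 3) and PCK2, a carboxykinase of mitochondria, 5.70 FPKM ± 0.561. Of the urea cycle, ASS1, which makes argininosuccinate, had 2.58, 2.22 and 1.96 FPKM, its partner ASL had 11.5 FPKM ± 0.446 and CPS1, the entry to the urea cycle, had 0.224, 0.309 and 0.337 FPKM. All 23 tricarboxylic acid cycle genes were expressed with a median of 22.1 FPKM, MDH2 being the highest at 124 FPKM ± 6.81. IDH1 held 74.3% ± 0.416 of the sum of IDH1 and IDH2.

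Building-block synthesis was broadly expressed. Of 23 serine, one-carbon and nucleotide synthesis genes 22 were expressed, with IMPDH2, the enzyme of guanine nucleotide synthesis, at 147 FPKM ± 4.40 (SD, n = 3), PSAT1 at 61.3 FPKM ± 2.22, TYMS, thymidylate synthase, at 62.3, 55.0 and 61.4 FPKM, SHMT2 at 30.1 FPKM ± 1.71 and PHGDH at 11.4, 10.4 and 10.9 FPKM. The exception was ADSL at 0.432 FPKM, with 30.6% shared exons. Of 25 lipid genes 23 were expressed. SCD had 707, 774 and 742 FPKM and held 99.1% ± 0.0151 of the level of both desaturases, and FASN, fatty acid synthase, had 112, 135 and 117 FPKM. FDFT1, the squalene synthase of the cholesterol path, had 65.9 FPKM ± 2.39. Of the carnitine palmitoyltransferases, which admit fatty acids to mitochondria, CPT1A held 98.7% ± 0.389.

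Amino acid genes were expressed in 13 of 19 cases (68.4%), near the 63% of all protein-coding genes. GLUD1, glutamate dehydrogenase, had 68.5 FPKM ± 1.31 (SD, n = 3), and the transaminases GOT2 and GOT1 had 44.1 FPKM ± 0.956 and 33.7 FPKM ± 1.72. SLC7A11, the cystine importer, had 0.810, 0.859 and 0.741 FPKM. ASNS, asparagine synthetase, had 0.661, 0.842 and 0.837 FPKM with 84.3% shared exons. Of 23 redox and detoxification genes 14 (60.9%) were expressed, also near that share. PRDX1, a peroxiredoxin, had 318 FPKM ± 20.6, TXN 132 FPKM ± 5.26, GPX4 131, 120 and 122 FPKM, GSTP1 90.5, 86.0 and 78.2 FPKM and NQO1, a quinone reductase under NRF2, 61.5, 54.5 and 59.2 FPKM. AKR1B10, an aldo-keto reductase, was listed at 0 in replicate 2 and had 0.0307 and 0.0293 FPKM, 1 fragment each, in replicates 1 and 3, and ALDH1A1, an aldehyde dehydrogenase, had 0.158 FPKM ± 0.0716.

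Of the 162 repair genes, 145 (89.5%) were at or above 1 FPKM, with a median of 6.48 FPKM. In homologous recombination, which copies an intact sister, 29 of 32 genes were expressed. BRCA1 had 4.12, 4.30 and 4.20 FPKM and BRCA2 had 2.07, 2.42 and 2.03 FPKM, below the single-strand binding subunits RPA2 at 41.6 FPKM ± 1.70 (SD, n = 3) and RPA1 at 37.3 FPKM ± 0.506 and the end-resection factor RBBP8 at 11.7 FPKM ± 0.458. RAD50, a subunit of the MRN complex, had 0.783, 0.922 and 0.951 FPKM with 90.6% shared exons, and SLX1A, a nuclease subunit, had 0.0212 FPKM with 88.5%.

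End joining, which ligates broken ends directly, was led by the Ku and DNA-PK genes. XRCC6 had 146, 140 and 140 FPKM, XRCC5 had 86.6, 82.7 and 83.8 FPKM, and PRKDC had 67.5, 81.8 and 72.2 FPKM. XRCC6 was 1.68 ± 0.00703 times XRCC5 in these samples, and 1.41 times per length of the principal transcript. The products of both form the Ku heterodimer. POLQ, the polymerase of alternative end joining, had 3.06, 3.65 and 3.46 FPKM. NHEJ1, the XLF factor, was the member below 1 FPKM of 17, listed at 0 in replicate 1 and at 0.0335 and 0.0164 FPKM in the others, with 93.2% shared exons.

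In base excision repair 21 of 22 genes were expressed. APEX1, the abasic endonuclease, had 63.2, 55.5 and 61.9 FPKM, XRCC1 33.4 FPKM ± 1.36 (SD, n = 3), PARP1 24.8 FPKM ± 0.190 and OGG1, the oxidised guanine glycosylase, 2.14 FPKM ± 0.0535. In nucleotide excision repair 18 of 20 were expressed, with RAD23B at 62.7 FPKM ± 2.40 and ERCC1 at 46.5, 43.7 and 49.7 FPKM above the damage sensor XPC at 8.30 FPKM ± 0.279. The exceptions were ERCC5 at 0.412 FPKM with 70.1% and GTF2H4 at 0.229 FPKM with 96.7% shared exons. Mismatch repair genes gave 7 of 9, with MSH6, which recognises mismatched bases, at 20.2 FPKM ± 0.668. MGMT, the methyltransferase that reverses alkylated guanine, had 4.36, 4.41 and 4.35 FPKM and the translesion polymerase POLH 11.2 FPKM ± 0.475. Among Fanconi genes 14 of 15 were expressed, with UBE2T at 23.2 FPKM ± 1.68 and FANCD2 at 6.69, 7.44 and 7.64 FPKM.

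Checkpoint genes were expressed in 20 of 22 cases. H2AX, the histone variant phosphorylated at breaks, had 242, 236 and 224 FPKM, and CDC25B, a CDK phosphatase, 52.3 FPKM ± 1.68 (SD, n = 3). The kinases were lower, CHEK1 at 9.12, 8.25 and 8.65 FPKM, ATM at 3.53 FPKM ± 0.294 and ATR at 3.42 FPKM ± 0.325, and the ranges of ATM and ATR overlapped. SLFN11, which blocks stressed replication forks, was listed at 0 in replicates 1 and 3 and had 0.0261 FPKM, 3 fragments, in replicate 2. HUS1, a clamp subunit, had 0.762 FPKM ± 0.0971 with no shared exons in GENCODE 29.

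Of the 17 repair genes below 1 FPKM, 8 had at least 50% shared exons on either strand, and these were 8 of the 10 repair genes in that class (80.0%). NEIL1, among the 8, shared 53.3% on either strand and 0% on the same strand. Among the 152 repair genes with less sharing, 9 (5.92%) were below 1 FPKM, and they included the meiotic genes SPO11, MSH4, SYCP3, REC8, TEX11 and HFM1. CDK4, LDHB and VIM also had at least 50% shared exons, at the levels given above, and ALDOA, an aldolase with 100% shared exons, had 20.8 FPKM ± 1.05 (SD, n = 3).

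**Figure D5:**
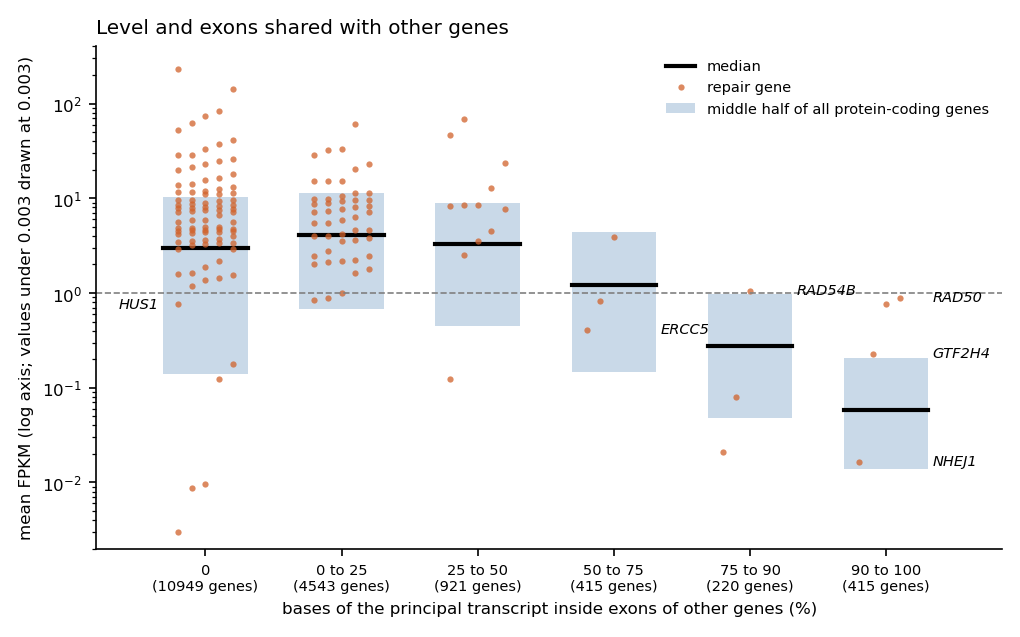
Mean FPKM on a log axis against the percentage of bases of the principal transcript that lie in exons of other genes on either strand. Boxes are the middle 50% of all protein-coding genes and black bars their medians; orange points are the 162 repair genes, of which NHEJ1, GTF2H4, ERCC5 and RAD50 lie below 1 FPKM in the 3 classes to the right.

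Meiotic recombination genes, a germline group like the cancer-testis antigens, were expressed in 7 of 12 cases (58.3%), near the 63% of all protein-coding genes. HORMAD1, an axis protein that guards unsynapsed chromosomes, had 17.4, 15.2 and 14.7 FPKM. SYCP2, a synaptonemal complex protein, had 9.61, 9.74 and 9.62 FPKM, STAG3, the meiotic cohesin subunit, 9.39 FPKM ± 0.485 (SD, n = 3), and MND1, a strand exchange accessory protein, 9.02 FPKM ± 0.588. DMC1, the meiotic recombinase, had 1.05, 1.42 and 1.13 FPKM. The nuclease SPO11, which starts meiotic recombination, was listed at 0 in replicates 2 and 3 and had 0.0287 FPKM, 1 fragment, in replicate 1, and TEX11 was listed at 0, so the group was expressed in part.

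The machinery that a transfected siRNA meets was present, and interferon genes were mixed. All 10 small RNA genes were expressed, with AGO2, the slicing Argonaute, at 8.23, 10.7 and 9.82 FPKM and DICER1 at 14.4, 16.6 and 15.4 FPKM. AGO2 held 44.7% ± 1.93 (SD, n = 3) of the Argonaute sum. Of 19 RNA sensing and interferon genes 10 were expressed. ISG15, a ubiquitin-like interferon product, had 39.4, 38.6 and 34.3 FPKM, while IFIT1 had 2.71, 2.46 and 2.68 FPKM and MX1, named after its value was seen, 0.0305 FPKM ± 0.0128.

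The genes of the study's title were expressed in these control cells. For comparison, protein-coding genes at or above 1 FPKM had a median of 7.48 FPKM. FOXN3, a forkhead repressor, had 4.85, 5.25 and 5.00 FPKM. BTRC, which encodes β-TrCP, a substrate receptor of a ubiquitin ligase, had 4.52, 4.58 and 5.24 FPKM, and its range overlapped that of FOXN3. RPS6KA3, which encodes the kinase RSK2, was higher at 11.5, 12.7 and 12.3 FPKM. BRCA1, given above, was the lowest of the 4 by its mean and its range lay below that of FOXN3.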

How the data were processed

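The 3 siControl samples of a series of 9 were described, grouped by their titles. The submitters' processing notes name StringTie 1.3.3b, HISAT2 2.1.0 and fastp 0.14.0, with the build GRCh38. Their options and the annotation release were not stated there. Per the labels' protocols, polyadenylated RNA went into NEBNext Ultra libraries. The values deposited by the authors are FPKM per gene, 1 column per sample. Low FPKM were whole multiples of a step, and GENCODE 29 exon lengths turned the steps into depth: 98.3% of 41093 values worth 1 to 50 fragments were whole within 0.05, a method tested on simulated data. Biotypes, principal transcripts and shared exons came from GENCODE 29 (34730 genes matched, 59 not). Levels are means ± SD over 3 samples with no test, since only 1 group was described. Fragment counts cover counting error only. Members and lists were chosen with earlier results of these data known. Named genes were the fixed markers and the 4 highest genes of each of 49 lists, all members of 23 families, the most abundant genes and the genes of the title; all others were named after their values were seen. Tables were made in Python 3.11.15 (pandas 2.3.3, with scipy 1.17.1 over numpy 2.4.6) and plots in matplotlib 3.10.9. Alternatives were other thresholds, TPM scaling, leaving out mitochondrial genes or a replicate, the length of the principal transcript, and leaving out genes with shared exons. Some list genes are not reported here.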

Additional observations from a re-analysis of the deposited data

How the results depend on the processing

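No paired analysis was possible because only 1 group was described and no groups were compared. Counts of genes at or above 1 FPKM were recomputed for all genes and 49 lists. With a threshold of 0.5 FPKM, 46 of the 50 counts stayed within 1.5 times; ciliated markers rose from 0 to 2, endoderm factors from 3 to 6, immune markers from 0 to 1 and fibroblast markers from 0 to 1. With a threshold of 2 FPKM, alveolar type 1 markers fell from 4 to 2 and basal markers from 1 to 0. With TPM, ciliated markers came to 2, basal to 3, endoderm factors to 7, immune to 3 and fibroblast to 1. With mitochondrially encoded genes left out and each sample brought to a sum of 1e6, ciliated came to 2, basal to 3, endoderm factors to 7, immune to 3, endothelial to 1 and fibroblast to 1, and the list of mitochondrial genes to 0 by construction. Per length of the principal transcript, ciliated came to 2, endoderm factors to 5 and fibroblast to 1. These alternatives raise or lower the level that counts as 1, which is why lists near it move. Leaving out any replicate kept all 50 counts within 1.5 times (13237 to 13269 genes), as did leaving out genes with shared exons (12837 genes). The mean replicate correlation was 0.983 with a pseudocount of 0.1 and 0.992 over all genes. Per length of the principal transcript, the leader changed in 2 of 23 families, the phosphofructokinases among them. Depth sets a floor of 3 fragments, which for CDH1 is 0.0254 FPKM. Levels near such floors carry no order.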

Other observations

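Promoter composition differed between levels. In the 250 bases before the RefSeq start, the median number of CG dinucleotides was 6 in 2551 protein-coding genes below 0.1 FPKM, 14 between 0.1 and 1 FPKM, 21 between 1 and 10 FPKM, 22 between 10 and 100 FPKM and 21 at or above 100 FPKM. Spearman's rho across 13310 genes was 0.386, a description across genes, which are not independent and share base composition. The letters TATAAA, searched on both strands, stood in 10.7% of all 35116 windows, in 14.5% of those below 0.1 FPKM, in 4.53% of those between 1 and 10 FPKM and in 10.8% of those at or above 100 FPKM.

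Biotypes outside protein-coding genes were seldom at or above 1 FPKM. Of 4472 processed pseudogenes 444 (9.93%) passed, of 3774 antisense genes 542 (14.4%) and of 3474 lincRNA genes 449 (12.9%). The median level was 0.332 FPKM for 647 protein-coding genes with 1 exon in the principal transcript and 3.09 FPKM for 16803 with more. Across protein-coding genes, Spearman's rho of level was 0.0269 with the length of the principal transcript and -0.0221 with its GC content, a description across genes.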
